A study of Homo sapiens with 6 samples.

Results

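The genes examined were 10 members of the bone morphogenetic protein (BMP) pathway in A549 cells, a human lung adenocarcinoma line. They comprised the ID genes ID1, ID2, ID3 and ID4, the SMAD genes SMAD6, SMAD7 and SMAD9, and the modulators BAMBI, NOG and KCP. All 10 were found by symbol among the 19470 symbols of the count table. KCP was chosen for its very large fall between the groups compared here, so its values are given as a description with no test. The other 9 were picked by name for their roles, with results of these data known. The activated group held 3 libraries of wild-type A549 cells treated with a medium conditioned by osteoclasts, the cells that resorb bone. The dormant group held 3 libraries of wild-type A549 cells in which dormancy had been induced. The sources used here do not say how dormancy was induced, whether both groups shared a base medium, or whether each library was a separate culture. The p-values therefore cover library-to-library spread, possibly technical, and a difference of medium and a difference of cell state cannot be told apart. RNA was taken from bulk cells, so fewer cells that express a gene and less of its RNA per cell cannot be told apart either.

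BMPs are secreted ligands that bring type I and type II receptor kinases together. The receptors phosphorylate SMAD1, SMAD5 and SMAD9, which enter the nucleus with SMAD4 and switch on target genes, the ID genes foremost. ID proteins have a helix-loop-helix but no DNA-binding region, and they hold back differentiation by binding E proteins such as TCF3. SMAD6 and SMAD7 close a feedback loop by blocking the receptors and receptor SMADs. BAMBI is a receptor lacking a kinase, NOG (noggin) binds BMPs outside the cell, and KCP (kielin/chordin-like protein) is a secreted cysteine-rich protein known in mouse to enhance BMP signalling.

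Total counts lay between 34128471 and 36667725 per library. The epithelial keratin genes of the marker list were abundant (summed with EPCAM and CDH1, 7432 to 8369 CPM in activated and 4983 to 5675 CPM in dormant libraries), although EPCAM itself averaged only 0.611 CPM in activated and 1.28 CPM in dormant cells. CDKN2A, which A549 cells lack, had 1 count over the 6 libraries. Of 9 osteoclast markers, 5 had enough counts to be tested, and their list summed to 16.2 to 16.8 CPM in activated and 24.8 to 27.4 CPM in dormant libraries, with DCSTAMP, OCSTAMP, CALCR and TYROBP at 0. Of those 5, CTSK, NFATC1 and ACP5 fell, OSCAR did not pass, and MMP9 rose 5.28-fold (edgeR adjusted p = 0.000627), ACP5 and OSCAR having passed the filter through the dormant group only and MMP9 through the activated group only. The 7 myeloid markers together summed to 11.5 to 12.8 CPM in activated and 0.979 to 1.801 CPM in dormant libraries. Of these, 3 were tested and rose (CD14, LAPTM5 and CSF1R), of which LAPTM5 and CSF1R passed the filter on low counts through the activated group only and could only be seen to rise, and AIF1 and C1QA were at 0. The part of the osteoclast and myeloid transcripts in the results below was not tested.

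The starting regions of 6 genes are shown because they stand for the main patterns: ID1 and ID3, which rose most among the ID genes, ID2, which moved little, SMAD6, whose level did not pass the test, BAMBI, which rose, and KCP, which had 5 counts left. Each run is the 250 bases before the RefSeq start, 5′ to 3′ on the gene's strand, from RefSeq (GRCh38.p14). Capitals mark matches, on either strand, to the SMAD boxes GTCT, GTCTAGAC and GGCGCC, to the cAMP element TGACGTCA and to the E-box CACGTG.
ID1 (GRCh38.p14, chr20:31605039-31605288, + strand): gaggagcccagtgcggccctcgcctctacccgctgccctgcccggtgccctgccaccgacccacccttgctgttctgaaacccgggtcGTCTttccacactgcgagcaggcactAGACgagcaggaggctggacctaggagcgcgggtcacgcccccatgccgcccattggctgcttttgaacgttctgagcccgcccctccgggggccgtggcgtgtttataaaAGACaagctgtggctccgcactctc
ID3 (GRCh38.p14, chr1:23559502-23559751, - strand): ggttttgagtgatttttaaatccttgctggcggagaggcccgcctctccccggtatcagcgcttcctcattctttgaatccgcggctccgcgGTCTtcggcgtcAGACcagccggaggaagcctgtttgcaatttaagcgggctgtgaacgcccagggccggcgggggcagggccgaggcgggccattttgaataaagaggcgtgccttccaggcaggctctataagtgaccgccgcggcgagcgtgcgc
ID2 (GRCh38.p14, chr2:8681806-8682055, + strand): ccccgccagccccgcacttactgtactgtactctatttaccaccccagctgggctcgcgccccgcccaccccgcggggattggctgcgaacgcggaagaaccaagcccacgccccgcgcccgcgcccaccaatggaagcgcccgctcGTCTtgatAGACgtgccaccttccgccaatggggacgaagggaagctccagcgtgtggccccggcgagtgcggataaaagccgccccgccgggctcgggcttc
SMAD6 (GRCh38.p14, chr15:66701986-66702235, + strand): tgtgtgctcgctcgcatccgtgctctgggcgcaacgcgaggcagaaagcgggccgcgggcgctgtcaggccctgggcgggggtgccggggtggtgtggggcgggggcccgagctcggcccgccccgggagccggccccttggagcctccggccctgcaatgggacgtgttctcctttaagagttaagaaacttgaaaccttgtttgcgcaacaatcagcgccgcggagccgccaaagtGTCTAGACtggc
BAMBI (GRCh38.p14, chr10:28677271-28677520, + strand): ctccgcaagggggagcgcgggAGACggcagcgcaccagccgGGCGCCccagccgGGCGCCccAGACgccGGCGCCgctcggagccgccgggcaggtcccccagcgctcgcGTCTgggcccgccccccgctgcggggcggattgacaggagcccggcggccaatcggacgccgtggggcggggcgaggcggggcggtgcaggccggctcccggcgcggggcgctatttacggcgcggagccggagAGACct
KCP (GRCh38.p14, chr7:128910710-128910959, - strand): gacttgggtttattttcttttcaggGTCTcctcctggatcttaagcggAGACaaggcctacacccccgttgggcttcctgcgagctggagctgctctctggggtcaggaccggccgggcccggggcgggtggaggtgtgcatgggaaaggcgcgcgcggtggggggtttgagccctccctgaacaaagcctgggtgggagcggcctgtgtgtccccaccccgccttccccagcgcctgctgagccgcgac

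RefSeq promoters were found for 9 of the 10 genes, with 3 starts for SMAD7, and were searched for those 5 motifs on both strands. The short box GTCT was present for 9 of 9 genes, but it was also in 77.5% of all 35116 RefSeq promoters of the same length. It occurred 3 times for ID1, 2 times for ID3 and 2 times for ID2. The palindromic pair GTCTAGAC, which contains GTCT on both strands, was found only before SMAD6 and begins 12 bases ahead of its start. That pair was in 0.182% of all promoters. GGCGCC occurred 3 times before BAMBI and before no other of the 9 genes, against 16.4% of all promoters. The BAMBI window is 81.2% G or C, against a median of 58.0% over all promoters, and that share is not adjusted for base composition. CACGTG was found only before SMAD9 (6.34% of all promoters) and TGACGTCA before 0 of the 9 genes (1.65%). These are matches of letters in a short window, and the BMP-responsive element described for ID1 lies further upstream.

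All 4 ID transcripts were higher in activated than in dormant cells, by 20.8-fold for ID1, 4.001-fold for ID3, 2.77-fold for the scarce ID4 and 1.252-fold for ID2. Among the inhibitory SMADs, SMAD7 rose 1.18-fold and SMAD6, at 1.09-fold, did not pass the test. The modulators went apart, since BAMBI rose 2.69-fold while NOG fell 4.82-fold and KCP went to 5 counts. By edgeR's quasi-likelihood test at an adjusted p of 0.05, of the 8 genes given a test 6 were higher, 1 was lower and 1 did not pass. Of all 13336 genes tested, 73.7% passed (36.5% higher and 37.2% lower), so passing was common in this comparison. Over all genes tested the median log2 fold change was -0.02. The 8 genes, picked with results of these data known and 4 of them ID genes, had a median of 0.87, which describes this list alone. KCP, with a fitted value of -7.77, is outside that median. Groups did not overlap in CPM, the counts scaled to library size with TMM factors, for 6 of the 8 genes given a test, beside 76.5% of all genes tested. They did not overlap for KCP either, which its choice had fixed. Of the 10 genes, 9 passed the filter on low counts, ID4 through the activated group only and NOG and KCP through the dormant group only. ID4 could therefore only be seen to rise, and NOG and KCP only to fall.

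**Figure D1:**
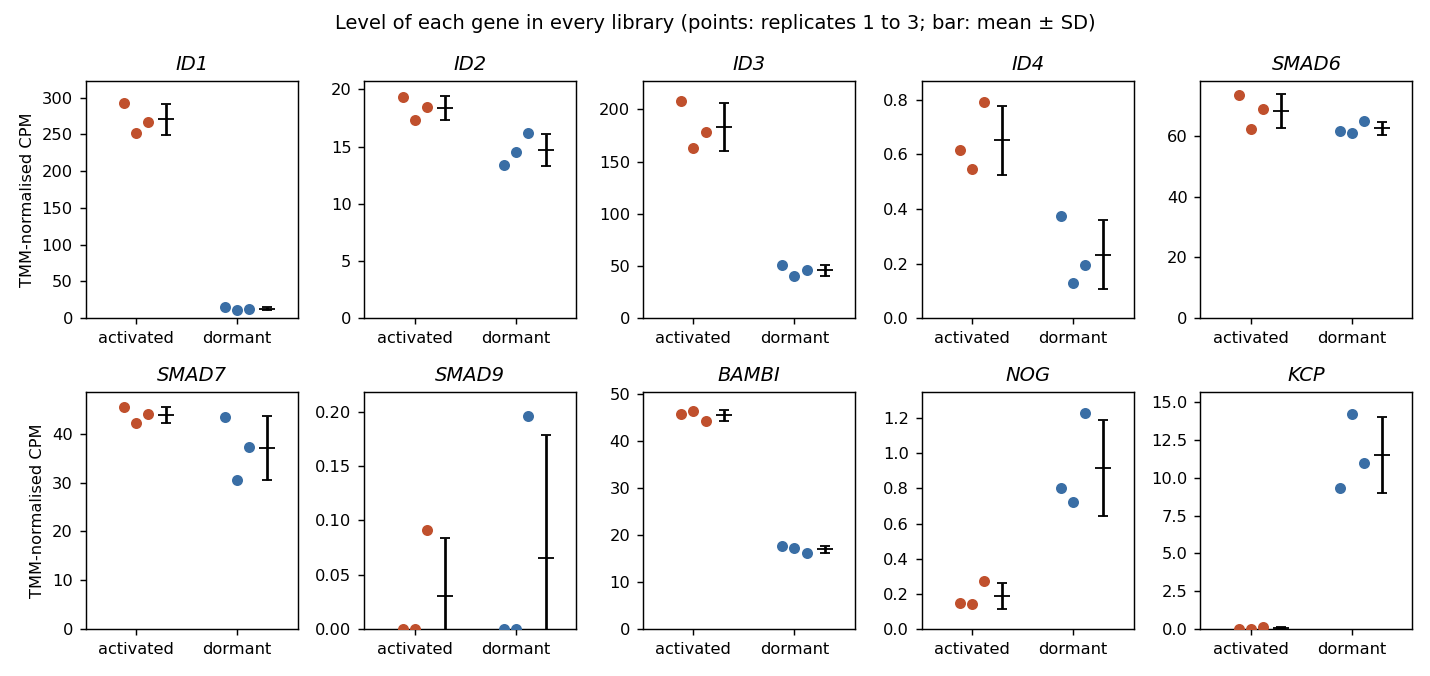
TMM-normalised counts (CPM) of the 10 genes in the 3 activated and 3 dormant libraries, each panel with its own axis from 0, points for replicates 1 to 3 and bars for mean ± SD. ID1 lay between 252 and 293 CPM in activated libraries and between 11.7 and 15.0 CPM in dormant ones, while the SMAD7 groups overlapped.

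ID1 (RefSeq GRCh38.p14, as for all positions here, chromosome 20, 31605289 to 31606510, plus strand), the best known BMP target, had 10023, 8745 and 8740 counts in activated libraries, against 561, 453 and 441 in dormant ones. These were 293, 252 and 266 CPM in activated cells and 15.0, 11.7 and 12.3 CPM in dormant cells. Every activated library stood far above every dormant one, and within each group the libraries stayed close together. The mean was 270.4 ± 20.8 CPM in activated and 13.0 ± 1.76 CPM in dormant cells (SD, n = 3 each). The log2 fold change was 4.38 ± 0.09 SE, with a 95% interval of 4.19 to 4.57 (edgeR adjusted p = 1.94e-14). It was the 55th largest rise of the 13336 genes. By FPKM, which divides by gene length and total counts, ID1 ranked 185th of all 19470 symbols in activated and 4333rd in dormant cells.

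ID3 (chromosome 1, 23557926 to 23559501, minus strand), which shares E protein partners with ID1, had 208, 163 and 179 CPM in activated libraries, against 50.8, 40.8 and 45.7 CPM in dormant ones. The groups were well apart. Its log2 fold change was 2.0 ± 0.09 SE, with a 95% interval of 1.81 to 2.19 (edgeR adjusted p = 4.32e-11). The intervals of ID1 and ID3 do not meet. ID1, ID3 and SMAD7 were highest in replicate 1 of both groups, 3 of the 6 genes with at least 100 counts in every library.

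ID2 (chromosome 2, 8682056 to 8684461, plus strand), known for binding the retinoblastoma protein as well as E proteins, had 19.4, 17.3 and 18.5 CPM in activated libraries, against 13.4, 14.6 and 16.2 CPM in dormant ones. The lowest activated library was only just above the highest dormant one. Its log2 fold change of 0.32 ± 0.10 SE (95% interval 0.11 to 0.53, edgeR adjusted p = 0.00821) lost its call when libraries were scaled by total counts (adjusted p = 0.107), with unfiltered log2(FPKM + 1) in limma (0.0941) and after a correction for gene length (0.0953). An antisense gene, ID2-AS1, overlaps exons of ID2 in GENCODE v29, and the sources used here do not say whether counting used strand; the same holds for the overlaps named below.

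ID4 (chromosome 6, 19837370 to 19842197, plus strand), the least expressed of the family, had 21, 19 and 26 counts in activated libraries, against 14, 5 and 7 in dormant ones. The groups did not overlap, but 26 dormant counts in all carry a wide counting error. The ratio of counts, activated over dormant, was 2.80 (exact binomial 95% interval 1.75 to 4.59, counting error only). The fitted log2 fold change was 1.47 ± 0.51 SE (edgeR adjusted p = 0.0183), and its call was lost without dormant replicate 2 (adjusted p = 0.0913), dormant replicate 3 (0.0645) or activated replicate 3 (0.0733). ID4 passed the filter through the activated group only, so it could only be seen to rise.

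The makeup of the ID family turned over between the groups. On the FPKM scale ID1 made up 56.0, 58.1 and 57.2% of the summed ID transcripts in activated libraries, against 19.3, 18.0 and 17.1% in dormant ones. ID3 made up 41.1, 38.9 and 39.7% in activated libraries, against 67.6, 65.0 and 65.8% in dormant ones. ID1 was thus the leading member in every activated library and ID3 in every dormant library. The ID1 share differed by 39.0 percentage points and the ID3 share by -26.2, activated minus dormant (exact two-sided permutation p = 0.1 for each, the smallest that 3 against 3 libraries allow). ID2 averaged 2.94 ± 0.119% of the sum in activated and 15.7 ± 2.31% in dormant cells, and ID4 at most 0.0432% in activated and 0.122% in dormant libraries. The sum itself was 506, 421 and 451 FPKM in activated libraries, against 82.3, 70.0 and 76.7 FPKM in dormant ones.

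**Figure D2:**
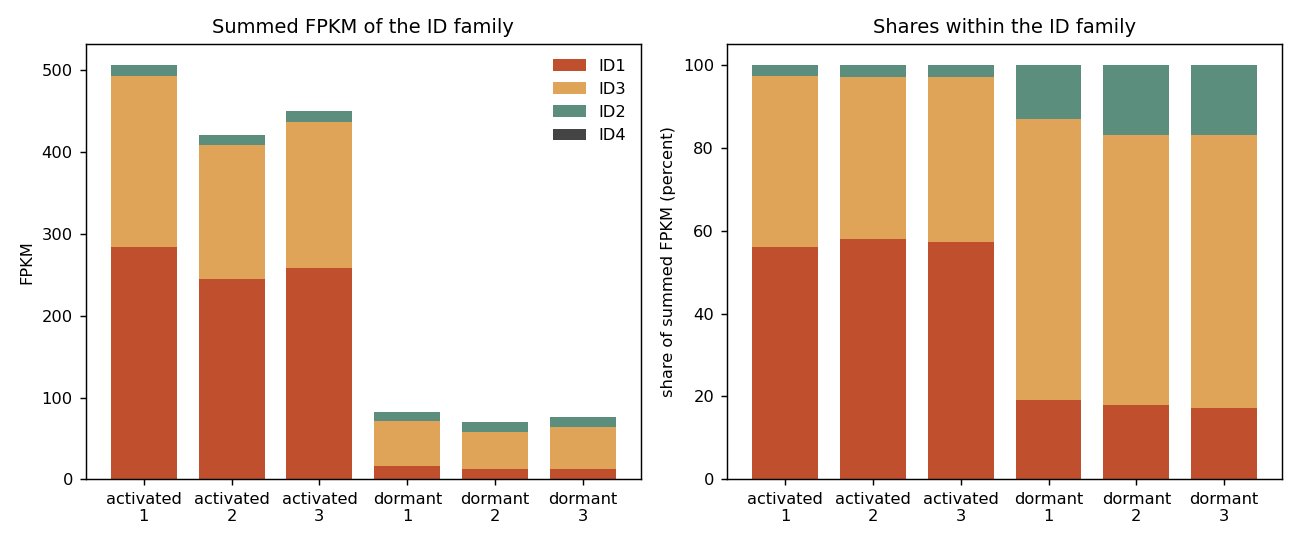
Left, FPKM of ID1, ID3, ID2 and ID4 stacked for each of the 3 activated and 3 dormant libraries. Right, the same as percent of their sum, where ID1 takes 56.0 to 58.1% in activated and 17.1 to 19.3% in dormant libraries; ID4 is too small to see.

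The E proteins, which ID proteins bind, did not move together. TCF3 rose 1.497-fold, to 111 ± 1.49 CPM in activated against 74.1 ± 2.96 CPM in dormant cells (SD, n = 3 each, edgeR adjusted p = 8.99e-08), and TCF4, whose exons an antisense gene and a pseudogene overlap, rose 2.75-fold (adjusted p = 3.66e-06). TCF12, the most abundant of them in dormant cells, fell to 92.5 ± 9.61 CPM in activated cells, against 152 ± 5.996 CPM in dormant cells (adjusted p = 1.89e-07). Their summed level was 31.5, 34.1 and 33.4 FPKM in activated libraries, against 34.7, 34.2 and 36.2 FPKM in dormant ones. The sum of ID transcripts stood at 16.1, 12.3 and 13.5 times that of the E proteins in activated libraries, against 2.37, 2.05 and 2.12 times in dormant ones (exact two-sided permutation p = 0.1). This ratio of transcripts was chosen after the values were seen and says nothing of protein amounts.

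SMAD6 (chromosome 15, 66702236 to 66782849, plus strand), the inhibitory SMAD that acts chiefly on the BMP branch, had 73.3, 62.2 and 68.7 CPM in activated libraries, against 61.4, 61.0 and 65.0 CPM in dormant ones. The groups overlapped. The log2 fold change was 0.12 ± 0.06 SE, with a 95% interval of -0.01 to 0.26 (edgeR adjusted p = 0.0980), so a rise of up to 1.20-fold lay within it. It was -0.02 with total counts, passed after the length correction (0.25, adjusted p = 0.00306) and passed without activated replicate 2 (0.19, adjusted p = 0.0106).

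SMAD7 (chromosome 18, 48919853 to 48950965, minus strand), which inhibits both the BMP and TGF-beta branches, had 45.6, 42.3 and 44.0 CPM in activated libraries, against 43.5, 30.5 and 37.4 CPM in dormant ones. The dormant libraries spread more than the activated ones, and replicate 1 of the dormant group lay within the activated range. The log2 fold change was 0.24 ± 0.10 SE, with a 95% interval of 0.03 to 0.46 (edgeR adjusted p = 0.0374). The call was lost in 8 of 17 alternatives, among them total counts (0.11, adjusted p = 0.333), and without dormant replicate 2 the log2 fold change was 0.12 (adjusted p = 0.194). On the FPKM scale the sum of SMAD6 and SMAD7 averaged 19.8 ± 1.11 in activated and 19.1 ± 1.73 in dormant cells (SD, n = 3 each, exact two-sided permutation p = 0.6). This sum was not among the planned comparisons, and FPKM are scaled by total counts. With TMM factors SMAD6, SMAD7 and the scarce SMAD9 summed to 104.5 to 118.9 CPM in activated and 91.5 to 105.0 CPM in dormant libraries.

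SMAD9 (chromosome 13, 36844831 to 36920854, minus strand), a receptor-activated SMAD, was barely detected. It had 0, 0 and 3 counts in activated libraries, against 0, 0 and 7 in dormant ones, so its few counts all lay in replicate 3 of each group. The ratio of counts, activated over dormant, was 0.472 with an interval of 0.0788 to 2.07 that spans no difference. It was not tested. A count of 0 allows up to 0.0877 and 0.0864 CPM in activated replicates 1 and 2 and 0.0801 and 0.0772 CPM in dormant replicates 1 and 2. SMAD1 and SMAD5 made up nearly all of the RNA of the receptor SMADs of the BMP branch. SMAD9 gave at most 0.0739% of the summed SMAD1, SMAD5 and SMAD9 FPKM in any activated library and 0.131% in any dormant one.

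BAMBI (chromosome 10, 28677521 to 28682932, plus strand) had 45.8, 46.3 and 44.2 CPM in activated libraries, against 17.6, 17.1 and 16.1 CPM in dormant ones. The spread within each group was small and the groups were far apart. Its log2 fold change was 1.43 ± 0.07 SE, with a 95% interval of 1.28 to 1.57 (edgeR adjusted p = 1.09e-10). On the FPKM scale BAMBI stood at 3.82, 3.83 and 3.50 times the level of the type I receptor BMPR1A in activated libraries, against 2.14, 2.15 and 1.94 times in dormant ones (exact two-sided permutation p = 0.1, a ratio chosen after the values were seen).

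NOG (chromosome 17, 56593699 to 56595611, plus strand) had 0.146, 0.144 and 0.274 CPM in activated libraries, against 0.801, 0.720 and 1.23 CPM in dormant ones. The groups did not overlap, and both were low. The log2 fold change was -2.27 ± 0.50 SE, with a 95% interval of -3.33 to -1.21 (edgeR adjusted p = 0.000805). NOG passed the filter through the dormant group only, so it could only be seen to fall. The ratio of counts, dormant over activated, was 4.87 (exact binomial 95% interval 2.97 to 8.43).

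KCP (chromosome 7, 128876865 to 128910709, minus strand) had 0, 0 and 5 counts in activated libraries, against 349, 553 and 392 in dormant ones. In CPM these were 0, 0 and 0.152 in activated cells and 9.32, 14.2 and 10.96 in dormant cells. All activated counts came from replicate 3. The pooled ratio of counts, dormant over activated, was 235, given with no interval because KCP was chosen for this fall. In activated replicate 3 alone the level was 75.8-fold lower than in dormant cells. Without that library, taking 3 counts over both remaining activated libraries gave 265-fold lower. These values are descriptions and not bounds, because KCP was chosen for this fall and the library left out held all activated counts. KCP had the 6th largest fitted fall of the 13336 genes, the value for which it was chosen. Exons of KCP overlap ATP6V1F on the other strand and the noncoding gene FLNC-AS1 on the same strand in GENCODE v29. ATP6V1F, a subunit of the vacuolar proton pump, had a log2 fold change of -0.27 ± 0.05 SE (edgeR adjusted p = 0.000365).

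**Figure D3:**
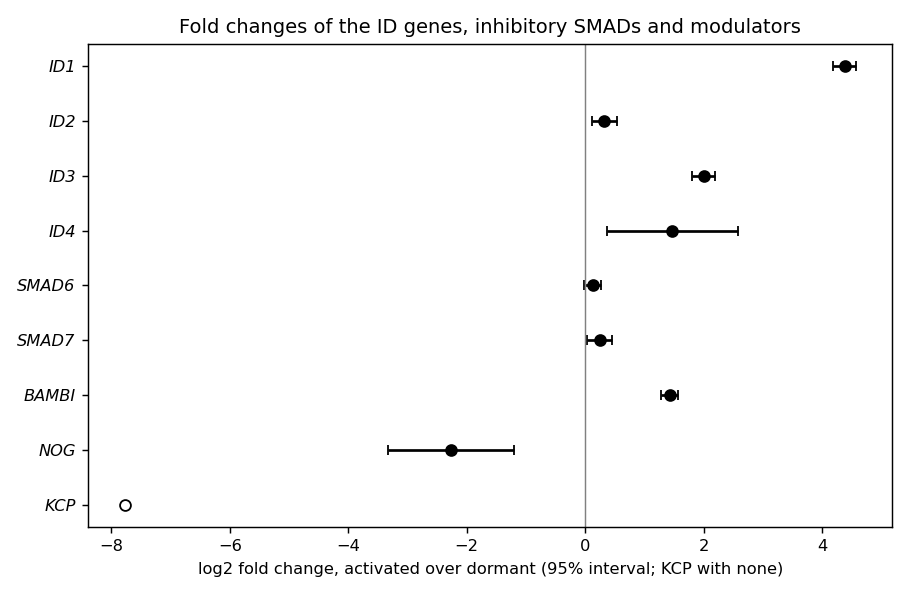
Log2 fold change, activated over dormant, with 95% intervals from edgeR for the 8 genes tested; KCP, chosen for its fall, is an open point with no interval, and SMAD9 had too few counts. ID1 at 4.38 and ID3 at 2.0 are the highest, and the SMAD6 interval of -0.01 to 0.26 includes 0.

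Ordered by mean FPKM, the activated cells read ID1, ID3, BAMBI, ID2, SMAD7, SMAD6, ID4, NOG, KCP and SMAD9. Their medians ran through 258, 179, 25.8, 13.6, 11.3, 8.58, 0.151 and 0.0727 FPKM, with KCP and SMAD9 at 0. The ranges of ID4 and NOG overlapped, and so did those of KCP and SMAD9. In dormant cells the order by mean FPKM was ID3, ID1, ID2, SMAD7, BAMBI, SMAD6, KCP, NOG, ID4 and SMAD9. Their ID3 median was 50.5 FPKM, and ID1 at 13.1, ID2 at 11.9, SMAD7 at 10.6 and BAMBI at 10.7 had ranges that overlapped their neighbours. By median, BAMBI stood just above SMAD7 in dormant cells, so the order of these 2 is not settled.

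The rest of the pathway was read from 65 genes in 6 lists, chosen with earlier results of these data known, of which 42 were tested. Of these 11 rose, 22 fell and 9 did not pass, so 78.6% passed beside 73.7% of all genes. Of all genes tested, 36.5% rose and 37.2% fell, and the counts of each list below stand beside those shares. CHRDL2 passed the filter through the activated group only, so it could only be seen to rise. GDF6, ENG and HEY1 passed it through the dormant group only and could only be seen to fall. Over all genes tested the median log2 difference was -0.16 when libraries were scaled by total counts, as FPKM are, and -0.02 with TMM factors.

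Among 14 BMP ligands, 5 were tested, of which 2 rose and 3 fell (median log2 fold change -0.70). BMP4, a ligand that signals through BMPR1A and BMPR1B, rose to 20.2 ± 1.91 CPM in activated cells, against 10.8 ± 0.0401 CPM in dormant cells (SD, n = 3 each, 1.87-fold, edgeR adjusted p = 9.14e-07). BMP2, its closest relative, fell to 15.5 ± 2.56 CPM in activated cells, against 34.5 ± 1.28 CPM in dormant cells (2.23-fold, adjusted p = 8.86e-08). The balance between them turned, since BMP4 stood at 2.50, 1.49 and 1.78 times BMP2 by FPKM in activated libraries, against 0.455, 0.458 and 0.430 times in dormant ones (exact two-sided permutation p = 0.1). This ratio was chosen after the values were seen. BMP6 rose 1.38-fold, a call lost with unfiltered log2(FPKM + 1) (adjusted p = 0.0703), and BMP8B fell 1.63-fold, although it shares sequence with BMP8A and exons with PPIE on the other strand. GDF6 fell 4.24-fold at low counts (edgeR adjusted p = 0.00127), and passed the filter through the dormant group only. Of the other 9 ligands 5 had 0 counts in all libraries.

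Among 11 receptors and co-receptors, 8 were tested, of which 2 rose, 5 fell and 1 did not pass (median -0.72). BMPR1A, a type I receptor for BMP2 and BMP4, rose to 48.5 ± 1.32 CPM in activated cells, against 32.3 ± 0.633 CPM in dormant cells (SD, n = 3 each, 1.503-fold, edgeR adjusted p = 4.29e-07). The co-receptor RGMB rose 1.65-fold (adjusted p = 4.11e-07), and 2 antisense genes overlap it. The type I receptors ACVR1 and BMPR1B fell 1.81-fold and 1.499-fold, and the type II receptors ACVR2A and ACVR2B fell 2.09-fold and 1.97-fold. ACVR2A shares exons with ORC4 and with an antisense gene, both on the other strand. ENG, a co-receptor known from endothelium, had 2 activated and 57 dormant counts, a dormant over activated ratio of 25.9 with an exact interval of 6.84 to 219. It passed the filter through the dormant group only, so it could only be seen to fall, and an antisense gene overlaps it. BMPR2, the main type II receptor for BMPs, had a log2 fold change of 0.15 ± 0.09 SE (adjusted p = 0.141). It passed after the length correction (0.30, adjusted p = 0.000742) and without activated replicate 1 (0.255, adjusted p = 0.00286).

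Of 11 SMADs and SMAD regulators, all were tested. Of them 1 rose, 9 fell and 1 did not pass (median -0.41), beside 36.5% higher and 37.2% lower of all genes tested. SMAD1 had 14.9, 15.4 and 17.1 CPM in activated libraries, against 23.5, 24.0 and 18.7 CPM in dormant ones (edgeR adjusted p = 0.000761). SMAD5, the more abundant of the receptor SMADs for BMP, fell to 60.5 ± 5.86 CPM in activated cells, against 81.9 ± 1.41 CPM in dormant cells (SD, n = 3 each, 1.36-fold, adjusted p = 2.91e-05). Antisense genes overlap exons of SMAD1, SMAD5, SMAD3 and NEDD4L, and protein-coding genes overlap those of SMAD4 (AC091551.1, same strand), SMURF1 (TRRAP, other strand) and SMURF2 (CEP95, other strand). SMAD4, the common partner, fell 1.33-fold, and SMAD2 and SMAD3, which serve TGF-beta, fell 1.93-fold and 1.26-fold. NEDD4L, a ubiquitin ligase for SMADs, fell 2.62-fold (adjusted p = 4.52e-11) and the phosphatase PPM1A 1.47-fold. SMURF2, another ubiquitin ligase of the pathway, rose 1.36-fold (adjusted p = 3.11e-06). The falls of SMURF1 (1.11-fold) and SKI (1.13-fold) ended after the length correction (adjusted p = 0.321 and 0.738) and without each of 2 and 3 single libraries.

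Among 17 other extracellular modulators, 9 were tested, of which 3 rose, 1 fell and 5 did not pass (median 0.04). CHRDL2, a chordin-like BMP binder, had 91, 54 and 100 counts in activated libraries, against 0, 0 and 0 in dormant ones. Its ratio of counts, activated over dormant, had an exact binomial lower limit of 72.6. Taking 3 counts over the dormant group gave 90.0-fold, a value that leaves out the counting error of the activated group. CHRDL2 passed the filter through the activated group only. FSTL1 and FSTL3, secreted relatives of follistatin, rose 4.14-fold and 2.39-fold, to 595 ± 43.1 and 390.2 ± 4.98 CPM in activated cells, against 144 ± 11.3 and 163 ± 12.4 CPM in dormant cells (SD, n = 3 each, edgeR adjusted p = 1.48e-12 and 4.17e-11). Noncoding genes overlap exons of FSTL1 and of GREM1. FST, follistatin itself, fell 2.51-fold (adjusted p = 7.76e-06). GREM1, an abundant BMP antagonist, had 250.3, 347 and 303 CPM in activated libraries, against 315, 309 and 317 CPM in dormant ones. The GREM1 groups overlapped, its log2 fold change was -0.06 ± 0.08 SE (adjusted p = 0.511), and it became -0.203 with total counts (adjusted p = 0.042) and -0.18 without activated replicate 2 (adjusted p = 0.0202).

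Of 9 further BMP target genes, 6 were tested, of which 1 rose, 3 fell and 2 did not pass (median -0.31). ATOH8, a helix-loop-helix factor induced by BMP in endothelium and liver, rose to 4.39 ± 1.39 CPM in activated cells, against 1.18 ± 0.479 CPM in dormant cells (SD, n = 3 each, 3.68-fold, edgeR adjusted p = 8.66e-05). HEY1, which also answers to NOTCH, had 4, 8 and 9 counts in activated libraries, against 71, 103 and 86 in dormant ones. Its ratio of counts, dormant over activated, was 11.2 (exact binomial 95% interval 7.20 to 18.5, edgeR adjusted p = 1.77e-06), and it passed the filter through the dormant group only. RUNX2, a regulator of bone formation, fell 1.76-fold (adjusted p = 9.49e-06) and MSX2, a homeobox gene, 1.35-fold (adjusted p = 0.00376). MSX1 and TBX3 did not pass.

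**Figure D4:**
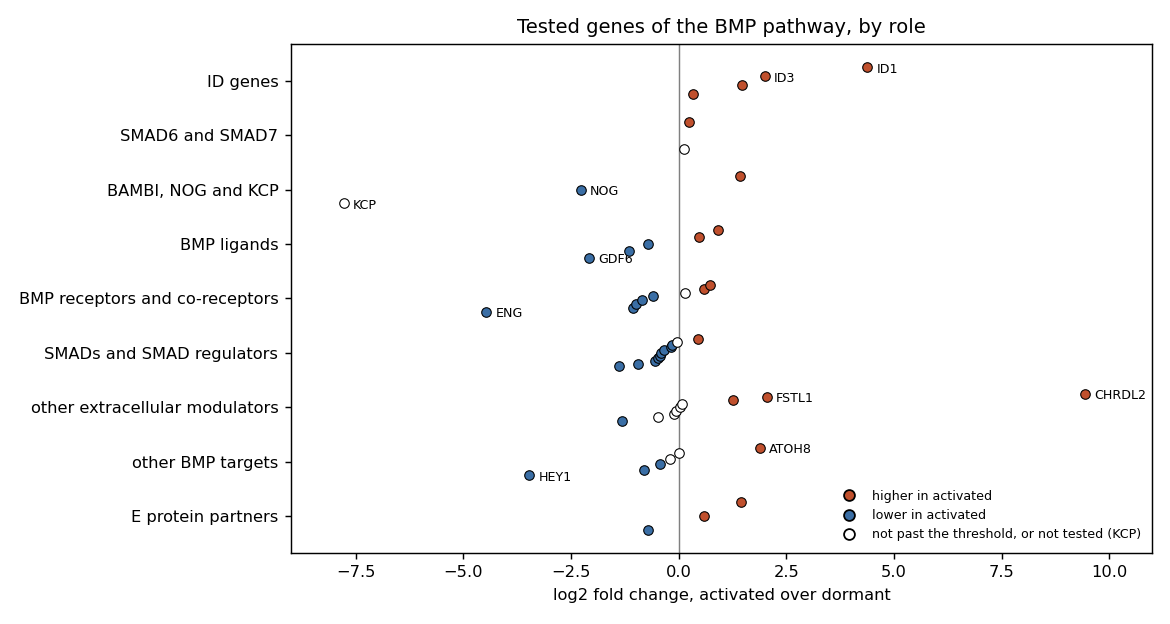
Log2 fold change, activated over dormant, of each gene in the fit across all genes, one row per role, coloured by direction where the adjusted p was below 0.05. The fitted value of CHRDL2, which had 0 dormant counts, depends on the prior count and is no bound. The 11 SMADs and regulators lie mostly left of 0, with 9 lower and 1 higher, beside 37.2% lower and 36.5% higher of all genes tested.

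**Figure D5:**
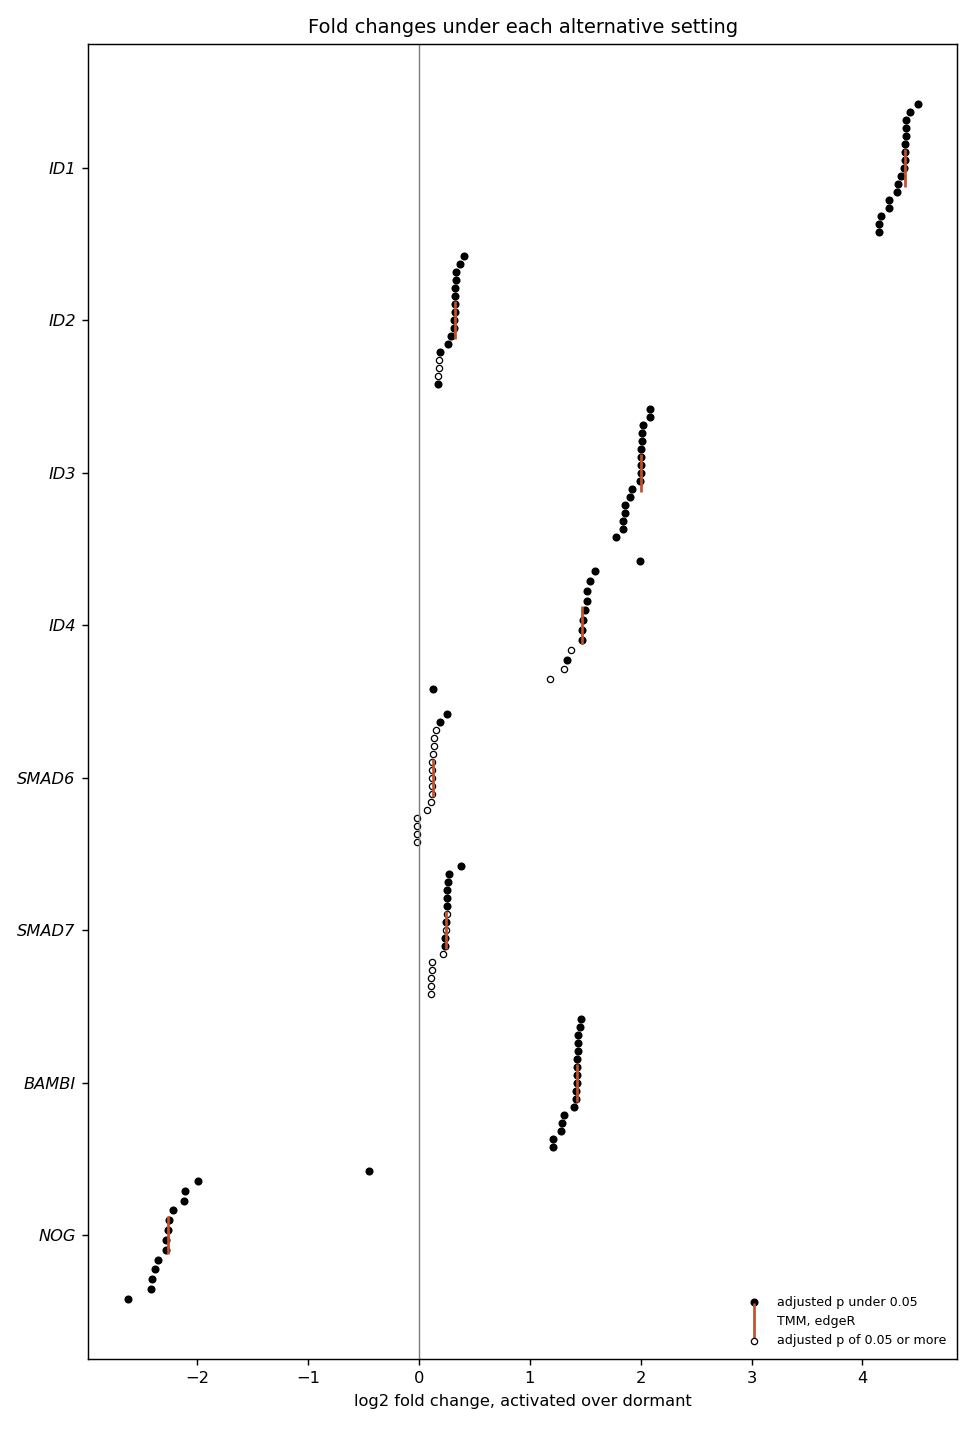
Log2 fold change, activated over dormant, of the 8 tested genes under each alternative setting (points, filled where the adjusted p was below 0.05) and with TMM factors in edgeR (bars). ID1 stayed between 4.15 and 4.50 and BAMBI between 1.21 and 1.46, while SMAD6 lay on both sides of 0 and SMAD7 had open points.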

How the data were processed

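Per the labels' protocols, TRIzol was used for RNA and the VAHTS Universal V6 kit for libraries. The authors deposited raw counts per gene symbol and FPKM values, the counts divided by gene length and library total. Per the submitters' processing notes, fastp, HISAT2 and HTSeq were used on GRCh38; the sources used here give no versions, annotation or strand setting.

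Groups were compared in R 4.3.3 by the quasi-likelihood test of edgeR 4.0.16, with TMM factors, the default filter by group and Benjamini-Hochberg adjustment over 13336 genes, at 0.05. Standard errors were derived from each log2 fold change and its F statistic. Levels are compared between genes on FPKM. The procedure was tested on simulated data. Alternatives were other scalings (total counts, DESeq2 size factors), DESeq2 1.42.0, limma 3.58.1 (voom, or log2 FPKM with a pseudocount of 1 or 0.1, filtered at a mean FPKM of 0.5 or unfiltered), no or a stricter filter (1 CPM in 3 libraries), a replicate block, a loess on gene length (span 0.3) and leaving out each library. Intervals of count ratios are exact binomial 95% intervals; like the limit of 3 counts used where a count is 0, they hold counting error alone. No column of the tables was left out. All 10 genes are named, with the pathway genes past the threshold; GREM1, BMPR2, MSX1 and TBX3 were added after their values were seen. The genes and lists were chosen with earlier results of these data known.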

Additional observations from a re-analysis of the deposited data

How the results depend on the processing

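Across 8 tested members and 17 alternatives, 110 of 130 values kept direction and side of the threshold, 14 lost a call, 2 gained one and 4 changed sign. For 35 named pathway genes, 572 of 586 values did so. Changed genes numbered 9830 (4868 higher, 4962 lower), and 9298 to 9756 (4625 to 4836 and 4645 to 4920) with 1 library left out. Total counts gave 3941 higher and 5998 lower. SMAD6 turned to -0.0167 with total counts, -0.0171 with log2(FPKM + 1), filtered or not, and -0.0191 with log2(FPKM + 0.1). GREM1 turned to 0.0949 after the length correction and 0.055 without activated replicate 1, and reached -0.1791 without activated replicate 2. Among other extracellular modulators, 3 fell with total counts and 2 with each log2 FPKM fit, in place of 1, and 1 to 2 with 1 library left out. The filter at a mean FPKM of 0.5 removed ATOH8, leaving 0 of the further targets higher. It also removed ID4, NOG, CHRDL2, GDF6 and ENG, and a gene has no value where a filter removed it. Unfiltered log2(FPKM + 1) left 1 ligand higher. The ID3 share difference was -23.4 points on CPM, and -26.8 to -25.5 with 1 library left out. A pseudocount of 1 shrank low genes by construction (ID4 0.13, NOG -0.45). Where a call was lost or moved otherwise, the cause was not tested.

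With the replicate block, 9789 genes changed and ID2 and SMAD7 had adjusted p = 0.0105 and 0.00862, with no member's call changed. Deviations of libraries with the same number correlated at -0.0152, 0.019 and -0.0057. Correlations over all genes cannot show whether such libraries were handled together, and the sources used here do not say whether the numbers pair them. Depth limited SMAD9, ID4, NOG and KCP.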
